A study of Mus musculus with 18 samples.

Results

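OSKM-iPSCs were compared with OSKM-ESCs, which were kept in the same medium, N2B27 + DOX, with no 2i inhibitors and no LIF. The comparison addresses what differs between pluripotent cells of a different origin when the medium is shared. Its members were chosen by sample title and comprised 8 of the 18 RNA-Seq libraries of the series, with 2 iPSC clones and 6 ESC cultures.

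The OSKM-ESCs were 1 line, Tet-On-OSKM/Oct4-GFP, which had been derived and grown in 2iL on feeder fibroblasts and was then switched to N2B27 + DOX. Cultures were collected at days 18, 25 and 38, with 2 per day. In the labels, the line came from mating a (C57BL/6 x 129S4/SvJae)F1 strain to one written as (CBA/CaJ X C57BL/6J)F2. The OSKM-iPSCs were clone 1 at passage 7 and clone 3 at passage 6, each from Tet-On-OSKM MEFs of the strain (C57BL/6 x 129S4/SvJae)F1, reprogrammed and propagated in N2B27 + DOX on feeder cells. All 8 libraries therefore came from cells that carried the reverse tetracycline transactivator M2rtTA in Rosa26 and a polycistronic OSKM transgene in Col1a1, and that had DOX. The Oct4-GFP allele is stated for the ESC line. Origin, strain, the number of passages and time in the medium cannot be told apart, because they change together between the ESC line and the clones. The cultures are of 1 line, and the labels do not say whether the clones came from separate embryos, so p-values measure the spread between these libraries only.

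OSKM stands for Oct4, Sox2, Klf4 and c-Myc, the transcription factors that turn somatic cells into iPSCs, and DOX switches their transgene on. ESCs are taken from the inner cells of a blastocyst, whereas iPSCs start as a differentiated cell and have to erase its program. iPSCs and ESCs have long been compared for traces of the cell of origin, for imprinted genes, which are expressed from 1 parental copy, and for differences of genetic background.

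A gene was counted above or below only if both clones lay outside the range of all 6 ESC cultures. X- and Y-linked genes were left out, since the Y-linked Eif2s3y had an FPKM of 43.2 in clone 1, 0 in clone 3 and 1.25 to 3.60 in the ESC cultures. In the same order, Ddx3y was at 18.9, 0 and 0.322 to 2.25, and Xist at 0.376, 3.01 and 0 to 0.17. Whether this difference in sex-linked expression bears on autosomal genes was not tested. FPKM is the number of fragments per kilobase of transcript, scaled to the mapped fragments of the library. Of 13219 genes tested, with an FPKM over 1 in at least 1 of the 8 libraries, both clones were above in 1307 (9.89%) and below in 1052 (7.96%). Both clones were inside the range in 5295 genes (40.1%), 1 clone alone was outside in 4933 (37.3%), and the clones lay on opposite sides in 632 (4.78%). A gene was called different if it was outside the range, its mean FPKM differed more than 2-fold and its limma adjusted p was below 0.05. By this rule 125 genes were higher (0.946%) and 56 lower (0.424%) in OSKM-iPSCs. The counts moved over 1.5-fold with single libraries. Without clone 1, 251 were higher and 86 lower, and clone 3 alone was above in 2853 and below in 2623. Clone 1 alone was above in 3056 and below in 2208. In every fit without a clone the lone clone is assumed to vary as the ESC cultures do, so its p rests on their spread. The higher genes were 76 without culture 2 of day 18, 71 without culture 2 of day 25 and 75 and 80 without the cultures of day 38, and the lower genes were 35, 31 and 30 without culture 2 of day 18, culture 2 of day 25 and culture 1 of day 38.

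The fit counts 6 cultures with no day term, whereas cultures of the same day were alike. With 1 mean per day, so 3 values of ESCs, 22 genes were called higher and 15 lower. Of 36 of the called genes named in the text, 17 then kept a limma adjusted p below 0.05 and 19 did not (0.11 to 0.25). The 36 leave out Tnnt3, Tnni2, Mir675, Gm22774, Gm15590, Dynlt1b and Dynlt1c, whose values with 1 mean per day are not given here. The genes that lost it were Cyct, Krt7, Anxa4, Pltp, Got1l1, B3galnt1, Nkx1-2, Fosb, Nefl, Kcnj3, mt-Tw, Ier3, Spry2, Hand1, Dppa3, Ankrd37, Cldn3, Bnip3 and Gt(ROSA)26Sor.

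A median log2 difference of 0.03 over all genes tested shows that the libraries were on a common level. The difference is given throughout as log2(FPKM + 1) of the iPSCs minus that of the ESCs with its standard error, and understates changes at low FPKM. No test on a single value of 2 clones against 6 cultures can fall below an exact two-sided permutation p of 0.0714, so calls come from the limma fit over all genes.

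**Figure D1:**
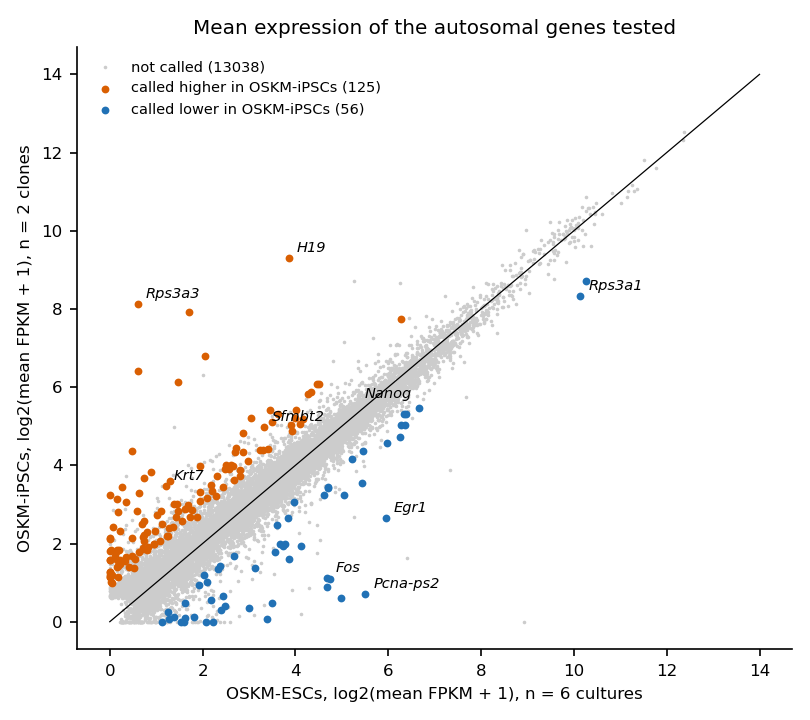
Mean expression of 13219 genes, as log2(mean FPKM + 1), in the 2 OSKM-iPSC clones (vertical axis) against the 6 OSKM-ESC cultures (horizontal axis), with the line of equal expression. The 125 genes called higher and 56 called lower are coloured, and Rps3a3 and H19 lie farthest above the line among those named in it, while Pcna-ps2, Fos and Egr1 lie far below.

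The libraries were alike in depth, as coverage per unit of FPKM ran from 5.21 to 6.07. All 8 pluripotency markers checked had an FPKM over 1 in every one of the 8 libraries. Markers of fibroblasts, the cell of origin and of the feeders, separated the clones. The summed FPKM of 25 markers was 258 in clone 1, 15.3 in clone 3, 50.8 to 103 in the 6 cultures and 4115 and 4482 in the MEFs. In bulk libraries, fewer cells of a type and less RNA per cell cannot be told apart. Clone 1 was above all 6 cultures for 20 of the 25 markers and clone 3 below all 6 for 19, with 17 of them showing both. Of the 25, 21 were tested and 0 had both clones outside on the same side. Of the defining markers, Dcn, a matrix proteoglycan, was at 5.35 in clone 1, 0.546 in clone 3 and 0.903 to 1.99 in the cultures, and Col3a1, a collagen, at 14.4, 0.0247 and 2.88 to 5.92. Lum, Prrx1 and Fap were at 0 in clone 3, and no defining marker was at 0 in clone 1. By Euclidean distance over log2 values the clones were 75.2 apart, ESC cultures of 1 day 32.4 to 39.1 and those of different days 55.2 to 68.1. Clone 1 was nearest to the cultures of day 18 (mean 67.1) and clone 3 to those of day 25 (mean 70.2), and the cultures of day 38 were farthest from each (78.3 and 87.3). Each clone therefore lay as far from the ESC cultures, 74.1 and 77.4 on average, as the clones lay from each other.

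The largest called differences in either direction, Rps3a3 and Pcna-ps2, were processed copies of housekeeping genes, which are single-exon inserts made from a spliced mRNA and placed elsewhere in the genome. Processed pseudogenes were 299 of the genes tested (2.26%), 21 of those called higher (16.8%) and 7 of those called lower (12.5%), so 9.36% of the type was called against 1.37% of all genes. The grouping by gene type was chosen after the values were seen. The authors kept uniquely mapped reads, so a read that matches parent and copy equally well was not kept, and the values of each such pair are uncertain.

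Rps3a1, a protein of the small ribosomal subunit, has the copies Rps3a3 and Rps3a2. Rps3a3 (ENSMUSG00000059751) lies on chr13:108670603-108671397 in GRCm38 and within the gene Pde4d, on the same strand. It had an FPKM of 0.179 at the lowest, 0.40 at the median and 0.940 at the highest of the 6 cultures, and 269 and 284.9 in clones 1 and 3, with a log2 difference of 7.54 ± 0.22 (adjusted p = 2.7e-07). Rps3a2 (ENSMUSG00000062611, chr14:88123017-88123808) was at 1.67, 3.29 and 4.34 in the cultures and at 109 and 111.2 in the clones (log2 4.78 ± 0.24, adjusted p = 9.9e-06). The clones were close to each other for both copies, and no culture overlapped them. The parent Rps3a1 (chr3:86137940-86142702) was lower in the clones, with 926.5, 1143 and 1373 in the cultures against 318.5 and 322.6 in the clones (log2 −1.80 ± 0.16, adjusted p = 0.00037). Parent and copies summed gave 928.5 to 1378 in the cultures and 696.5 and 718.6 in the clones, so the mean was 3.52-fold higher in ESCs for the parent alone and 1.6-fold for the sum. The host Pde4d was at 7.74 and 4.39 in the clones and 5.27 to 9.41 in the cultures, which overlap.

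The 2 loci are hard to tell apart, as a stretch of 120 coding bases shows, taken from exon 3 of Rps3a1 (chr3:86141307-86141426, minus strand) and from Rps3a3 (chr13:108670769-108670888, plus strand). Capitals mark the 2 bases at which they differ.
Rps3a1: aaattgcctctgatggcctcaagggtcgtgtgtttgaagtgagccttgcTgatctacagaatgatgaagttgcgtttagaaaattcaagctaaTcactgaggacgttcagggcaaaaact
Rps3a3: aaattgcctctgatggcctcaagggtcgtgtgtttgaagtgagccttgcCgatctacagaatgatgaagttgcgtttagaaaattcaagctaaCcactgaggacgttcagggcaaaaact
Over its 795 bases, Rps3a3 differs from its parent at 9 positions (98.9% identity), and 49.6% of its 50-base windows occur unaltered in the parent. For Rps3a2 these values were 4 positions of 792 (99.5%) and 76.7%.

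Further copies, chosen after their values were seen, differed in either direction. Rpl34-ps1, a copy of the large-subunit gene Rpl34 (chr6:71124610-71124963), was at 1.10, 1.64 and 4.48 in the 6 cultures and at 223.8 and 263.1 in the clones (log2 6.32 ± 0.37, adjusted p = 3.1e-05). Its parent was at 425.2 to 725.5 in the cultures and 304.6 and 376.9 in the clones, and their sum overlapped between groups (426.3 to 729.1 against 528.4 and 640.1). Tma7-ps, a copy of the translation-machinery gene Tma7 (chr1:171711088-171711282), was at 0.491, 1.92 and 2.87 in the cultures and at 64.4 and 73.7 in the clones (log2 4.73 ± 0.35, adjusted p = 0.00014). Its parent Tma7 was at 103 to 173 in the cultures and 89.1 and 84.8 in the clones (adjusted p = 0.13), and their sum overlapped, with 104 to 175.5 against 153.5 and 158.5. In the opposite direction, Pcna-ps2, a copy of the replication clamp Pcna (chr19:9283380-9284160), was at 34.2, 45.6 and 48.5 in the cultures and at 0.834 and 0.450 in the clones (log2 −4.79 ± 0.17, adjusted p = 6.3e-07). Its parent Pcna overlapped, with 246.6 to 311.3 in the cultures and 249.8 and 206.9 in the clones, but the sum of both did not, with 280.8 to 359.8 against 250.6 and 207.3. Rps13-ps1, a copy of the ribosomal gene Rps13 (chr8:87047689-87048226), was at 21.4, 31.8 and 35.9 in the cultures and at 0.578 and 0.451 in the clones (log2 −4.36 ± 0.19, adjusted p = 3.5e-06), while its parent was at 433.7 to 593.3 in the cultures and higher, 604.1 and 758.4, in the clones.

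For Pcna the same kind of stretch, of 120 bases from exon 5 of the parent (chr2:132249778-132249897, minus strand) and from Pcna-ps2 (chr19:9283961-9284080, plus strand), differs at 3 bases, in capitals.
Pcna: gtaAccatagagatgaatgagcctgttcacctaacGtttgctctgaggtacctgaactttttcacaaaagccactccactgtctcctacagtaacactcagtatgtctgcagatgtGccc
Pcna-ps2: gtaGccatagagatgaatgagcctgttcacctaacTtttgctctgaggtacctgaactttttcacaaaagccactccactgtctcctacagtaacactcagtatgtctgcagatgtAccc
Identity to the parent was 99.2% for Pcna-ps2, 99.4% for Rpl34-ps1, 99% for Tma7-ps and 96.8% for Rps13-ps1. The sequences are those of the reference strain in GRCm38, and which alleles the lines carry was not tested.

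**Figure D2:**
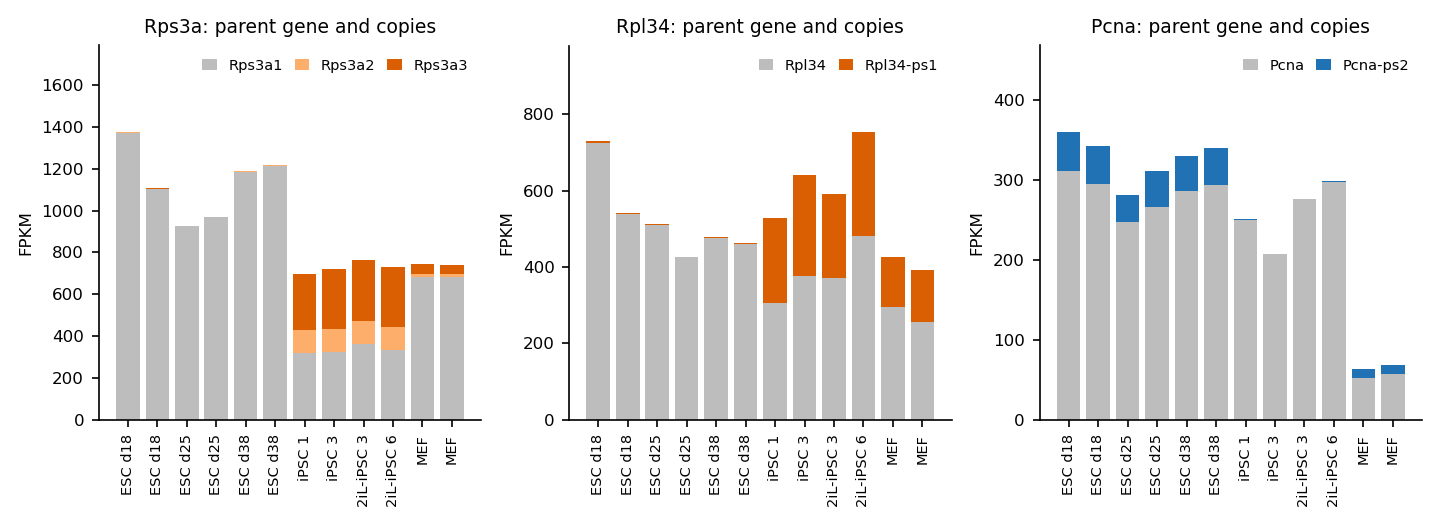
FPKM (vertical axes, from 0) of Rps3a1, Rpl34 and Pcna in grey and of their processed copies in colour, stacked, with 1 bar per library of the OSKM-ESCs, OSKM-iPSCs, 2iL-iPSCs and MEFs. Rps3a3 reaches 269 and 284.9 in the OSKM-iPSC clones and is too low to see in the OSKM-ESC cultures, and Pcna-ps2 is seen in the OSKM-ESCs and MEFs alone.

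The MEF libraries lay on the side of the clones for the copies that follow. Rps3a3 was at 44.6 and 42.4 in MEFs, Rpl34-ps1 at 131.7 and 135.5 and Tma7-ps at 88.4 and 99.8, each above all 6 OSKM-ESC cultures. Pcna-ps2 was at 11.9 and 11.2 and Rps13-ps1 at 0.0925 and 0 in MEFs, each below all 6. Over the called genes as a whole, both MEF libraries were above every ESC culture for 64 of the 125 higher genes (51.2%, against 28.1% of all genes tested) and under an FPKM of 1 for 50 (40%, against 18.5%). Both were below every culture for 46 of the 56 lower genes (82.1%, against 43.6% of all genes tested). The called genes were picked by the range of the same 6 cultures, so these shares cannot be read against those of all genes.

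Other called genes have close paralogs, which were looked at after their values were seen. Rnaset2b, a lysosomal ribonuclease gene (chr17:6970634-7011299), was at 7.98, 10.2 and 12.6 in the cultures and at 0.399 and 0.371 in the clones (log2 −3.0 ± 0.19, adjusted p = 4.1e-05). The paralog Rnaset2a overlapped, with 5.75 to 12.6 in the cultures and 10.9 and 9.40 in the clones. Tagap1, its neighbour on chr17:6955011-6961156, was lower too, with 12.4, 12.9 and 16.3 against 1.57 and 2.54 (log2 −2.26 ± 0.17, adjusted p = 0.00014). These genes stand among 6 called genes on chr17:6131836-7011299, of which 3 were higher (Gm22774, Dynlt1b and Dynlt1c) and 3 lower (Gm15590, Tagap1 and Rnaset2b). The interval was drawn around these calls, so their number cannot be read against the shares of all genes tested (0.946% called higher, 0.424% lower). Gm22774 (chr17:6131836-6131944) and Gm15590 (chr17:6131854-6132405) overlap, so reads in their shared bases may count for either. They may not be separate results. Hmga1, a chromatin architectural protein abundant in pluripotent cells (chr17:27556497-27563674), was at 947.3, 1246 and 1420 in the cultures and at 392.9 and 440.0 in the clones (log2 −1.56 ± 0.16, adjusted p = 0.00097). The related gene Hmga1b was at 28.3 to 37.0 in the cultures and at 243.9 and 40.0 in the clones, so clone 1 stood apart (adjusted p = 0.15).

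The imprinted genes called were all higher in the clones. H19, a non-coding RNA that is expressed from the maternal copy (chr7:142575529-142578143), was at 8.17, 11.6 and 20.4 in the 6 cultures and at 337.1 and 917.2 in the clones, a 46.6-fold higher mean (log2 5.35 ± 0.42, adjusted p = 0.00017). Fibroblasts express it strongly, with 2222 and 1696 in the MEFs. Clone 3, with the higher H19, had the lowest fibroblast marker sum of the 8 libraries, 15.3. Igf2, the growth factor gene that is expressed from the paternal copy and shares control elements with H19, overlapped between groups, with 14.5, 35.2 and 41.1 in the cultures and 62.2 and 21.7 in the clones.

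The neighbourhood of H19 on chromosome 7 was read from Mob2 to Gm23297, a window chosen after its values were seen. Of 25 genes tested there, both clones were above in 10 and below in 0, with a median log2 difference of 0.59, and 4 were called higher, H19, the microRNA gene Mir675 that H19 hosts, and the skeletal muscle troponin genes Tnnt3 and Tnni2. All genes tested gave 9.89% above, 7.96% below and 0.946% called higher. Tnnt3 was at 0.0434, 0.117 and 0.325 in the cultures and at 3.14 and 4.92 in the clones (log2 2.10, adjusted p = 0.00078). Tnni2 was at 0 to 0.561 in the cultures and at 1.68 in each clone (log2 1.26, adjusted p = 0.025). Tnnt3 was at 0.715 and 0.722 and Tnni2 at 0.235 and 0.561 in the MEFs, below the clones. Mir675 lies within the H19 transcript, so the reads of the 2 cannot be told apart.

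In a list of 34 other imprinted genes tested outside the Dlk1-Dio3 locus, both clones were above in 7 and below in 0, and 2 were called higher, H19 and Sfmbt2. The median log2 difference of the list was 0.17, against 0.03 over all genes, of which 9.89% were above and 7.96% below. Sfmbt2, a Polycomb-family gene expressed from the paternal copy and needed in trophoblast (chr2:10370510-10595253), was at 7.20, 9.31 and 10.3 in the cultures and at 30.2 and 30.9 in the clones (log2 1.67 ± 0.17, adjusted p = 0.00089). MEFs had 0.669 and 0.955. Uncalled members outside the range included Phlda2 (59.4 and 60.0 against 33.8 to 45.9, adjusted p = 0.065), Ascl2 (5.44 and 24.9 against 0.659 to 4.92, 0.099), Peg10 (172 and 253.6 against 74.0 to 148, 0.23) and Slc38a4 (78.2 and 88.9 against 26.2 to 54.1, 0.099).

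The Dlk1-Dio3 locus on chromosome 12, whose maternal RNAs are silenced in some iPSC lines, was expressed. Of 5 genes tested, 0 were above, 1 was below and 0 were called by limma (2 at an unadjusted p below 0.05), with a median log2 difference of −0.69. Among all genes tested, 9.89% lay above and 7.96% below. Meg3 was at 85.3, 189.1 and 286.2 in the cultures and at 74.5 and 146.4 in the clones (adjusted p = 0.55). Rian was at 193.1 to 488.4 in the cultures and at 116.2 and 217.8 in the clones (adjusted p = 0.27). Dlk1, the growth regulator expressed from the paternal copy, lay below, with 2.88 to 10.8 against 1.61 and 2.68 (adjusted p = 0.16).

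Immediate early genes, which growth factor signalling through MEK and ERK switches on within minutes, were among the genes with the largest called differences downward. Of 14 ERK targets tested, both clones were below in 7 and above in 2, and 3 were called lower (Fos, Egr1 and Spry2) and 1 higher (Ier3), with a median log2 difference of −0.58. Over all genes tested, 7.96% lay below and 9.89% above, and 0.424% were called lower and 0.946% higher. Fos, a subunit of the AP-1 factor (chr12:85473890-85477273), was at 13.1, 18.8 and 42.3 in the 6 cultures and at 1.42 and 0.939 in the clones (log2 −3.42 ± 0.43, adjusted p = 0.0047). Egr1, an early-response zinc finger factor, was at 30.0, 55.3 and 93.2 in the cultures and at 5.99 and 4.56 in the clones (log2 −3.18 ± 0.40, adjusted p = 0.0047). All 6 cultures were far above both clones for each gene. Both genes rose with day in the cultures. Fos was at 14.7 and 13.1 on day 18 and at 42.3 and 40.7 on day 38. Egr1 was at 30.0 and 37.3 on day 18 and at 93.2 and 91.9 on day 38. Both genes were higher in the MEFs than in the clones, with Fos at 9.96 and 9.59 and Egr1 at 24.3 and 26.7. Spry2, an inhibitor of receptor tyrosine kinase signalling, was at 28.5, 35.5 and 43.5 against 18.7 and 15.2 (log2 −1.04 ± 0.17, adjusted p = 0.018, but 0.1 without clone 3 and 0.15 with 1 mean per day). The phosphatase genes Dusp4 and Dusp6 and the factor Etv4 lay below the range with adjusted p of 0.083, 0.066 and 0.066. Spry1, a relative of Spry2, was above, with 3.55 to 4.81 against 7.62 and 9.37 (adjusted p = 0.034), but its mean differed less than 2-fold. Ier3, an early-response gene linked to survival, was at 1.3 to 3.16 against 7.89 and 4.33 (log2 1.35 ± 0.28, adjusted p = 0.048).

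The Fos relative Fosb (chr7:19302696-19310051), which was no member of the list, was at 2.30, 11.1 and 15.1 in the cultures and at 0.0833 and 0.0263 in the clones (log2 −3.06 ± 0.61, adjusted p = 0.038). Its cultures were at 2.30 and 2.99 on day 18 and at 15.1 and 13.9 on day 38. The Fosb call depended on single libraries, with an adjusted p of 0.066 to 0.15 without either culture of day 25 or of day 38, or without either clone. That of Ier3 did likewise, at 0.054 to 0.19 without 7 of the 8 libraries in turn. Fos and Egr1 kept an adjusted p below 0.05 when each library was left out in turn, and with 1 mean per day (0.04 and 0.039), though the fits without a clone rest on the spread of the cultures.

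The 250 bases before the Fos and Fosb starts (RefSeq, GRCm38.p6) are shown because both genes were called in 1 direction. Capitals mark TGACG, the core of the cAMP response element, searched on both strands. It begins 129 and 66 bases upstream of the start in Fos (chr12:85473640-85473889, plus strand) and 60 bases upstream in Fosb (chr7:19310046-19310295, minus strand).
Fos: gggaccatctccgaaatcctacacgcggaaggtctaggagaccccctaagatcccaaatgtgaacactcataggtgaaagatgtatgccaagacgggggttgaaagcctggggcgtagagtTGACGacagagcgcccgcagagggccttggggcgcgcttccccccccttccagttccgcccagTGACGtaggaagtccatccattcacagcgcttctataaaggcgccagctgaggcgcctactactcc
Fosb: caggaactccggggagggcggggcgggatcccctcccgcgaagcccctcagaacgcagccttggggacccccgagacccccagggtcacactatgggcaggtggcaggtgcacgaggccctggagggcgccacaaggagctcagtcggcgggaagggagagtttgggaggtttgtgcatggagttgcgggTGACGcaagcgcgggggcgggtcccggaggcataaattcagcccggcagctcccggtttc
TGACG or its reverse occurs in 17.8% of 32851 promoter windows of this length. Of 9 ERK targets matched to a window, 2 held it (Fos and Spred2).

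**Figure D3:**
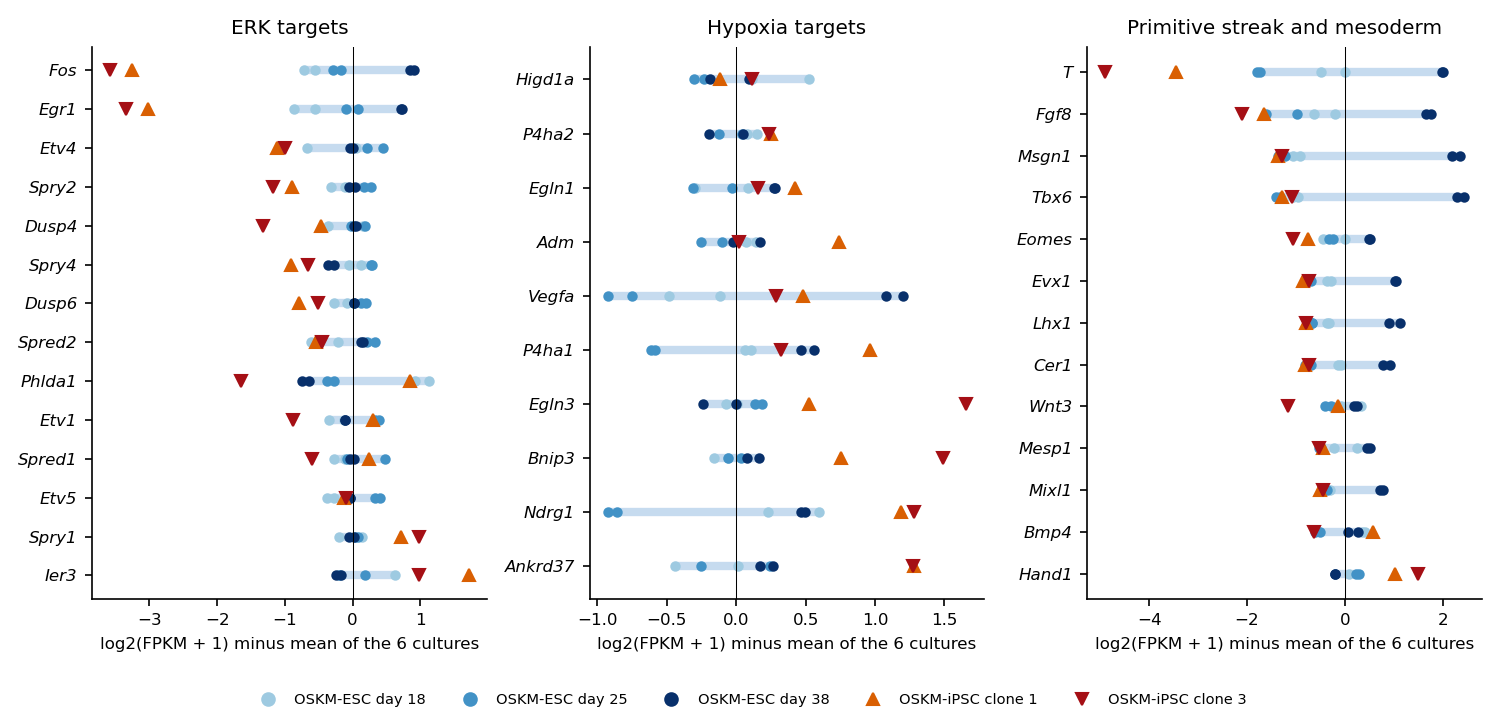
Members of the ERK, hypoxia, and streak and mesoderm lists in each library, as log2(FPKM + 1) minus the mean of the 6 OSKM-ESC cultures (horizontal axis), with circles for cultures by day and triangles for the clones. Fos and Egr1 lie far below the 6 cultures in both clones, whereas Ankrd37 and Bnip3 lie above, and the streak and mesoderm genes spread with day.

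The reprogramming factors and the naive pluripotency factors gave no call in limma, with 3 of the 4 reprogramming factors at an unadjusted p below 0.05. Pou5f1, or Oct4, whose endogenous and transgene RNA the files do not separate, was at 586.2, 717.0 and 810.5 in the cultures and below them in both clones, at 437.1 and 513.1 (log2 −0.55 ± 0.16, adjusted p = 0.13). Sox2 was at 66.8 to 126.7 against 66.4 and 93.2 (adjusted p = 0.41), Klf4 at 23.8 to 60.5 against 26.1 and 14.2 (0.2) and Myc at 67.9 to 140.7 against 71.9 and 42.4 (0.14). Of 12 naive transcription factors tested, 0 were above, 2 were below (Nr5a2 and Sall4) and 0 were called by limma (3 at an unadjusted p below 0.05), with a median log2 difference of −0.05. Clone 3 was higher than clone 1 for several. Nanog was at 22.4, 37.2 and 55.0 in the cultures and at 37.1 and 55.0 in clones 1 and 3. Esrrb was at 23.9 to 57.9 against 23.1 and 54.1, Klf2 at 8.84 to 19.6 against 9.68 and 24.2, and Zfp42, or Rex1, at 7.98 to 16.6 against 11.1 and 54.9 (adjusted p = 0.41). Nr5a2, a nuclear receptor that drives Oct4, was at 3.13 to 5.13 against 1.66 and 2.44 (0.12), and Sall4, a zinc finger partner of Oct4, at 36.7 to 66.6 against 29.8 and 31.7 (0.12). Of 18 other pluripotency genes tested, both clones were above in 1 and below in 2, and the 1 above, Dppa3, was called. For these lists, the shares of all genes tested to set beside them are 9.89% above, 7.96% below and 0.946% called higher. Dppa3, or Stella, which protects methylation in the early embryo and marks naive cells and germ cells (chr6:122626410-122630272), was at 8.20, 11.5 and 13.8 in the cultures and at 25.5 and 51.8 in the clones (log2 1.62 ± 0.27, adjusted p = 0.019, but 0.097 without clone 3 and 0.15 with 1 mean per day).

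Few early lineage genes were called. Of 13 streak and mesoderm genes tested, both clones were below in 5 and above in 1, with a median log2 difference of −0.78. Among all genes tested, 7.96% lay below and 9.89% above. T, or Brachyury, chosen after its values were seen, was at 13.3, 41.6 and 198.5 in the cultures and at 3.53 and 0.659 in the clones (adjusted p = 0.082), and Fgf8 was at 4.07 to 51.6 against 3.93 and 2.63 (0.3). Both genes varied strongly among the cultures and were highest at day 38. Hand1, a factor of trophoblast and heart that belongs to both lists, was called higher, at 0 to 0.401 against 1.34 and 2.23 (log2 1.26 ± 0.23, adjusted p = 0.029). Of 10 trophoblast genes tested, both clones were above in 4 (Gata3, Hand1, Ascl2 and Krt7) and below in 2 (Cdx2 and Eomes), with a median log2 difference of 0.54 and 2 calls. Krt7, a keratin of simple epithelia and trophoblast (chr15:101411043-101430313), was at 0.239, 0.897 and 2.79 in the cultures and at 9.40 and 10.7 in the clones (log2 2.39 ± 0.42, adjusted p = 0.026), with 5.46 and 4.41 in MEFs. The calls of Hand1 and Krt7 depended on single libraries. Without 1 of 4 libraries in turn the adjusted p was 0.059 to 0.12 for Hand1 (culture 2 of day 18, either culture of day 38, clone 3) and 0.054 to 0.12 for Krt7 (either culture of day 25, either clone). Endoderm (11 tested), formative and primed (11 tested), neural (12 tested) and germline genes (16 tested) gave 0 calls in limma, with 0, 1, 1 and 1 genes at an unadjusted p below 0.05 and both clones outside the range on the same side for 0, 0, 1 and 1 genes.

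Hypoxia targets, genes switched on by HIF when oxygen is low, were above the range in 5 of 10 tested and below in 0, with a median log2 difference of 0.51, and 2 were called. The shares of all genes tested were 9.89% above, 7.96% below and 0.946% called higher. Ankrd37, an ankyrin repeat protein (chr8:45996902-46005707), was at 0.949, 1.83 and 2.18 in the cultures and at 5.45 and 5.4 in the clones (log2 1.28 ± 0.23, adjusted p = 0.026). Bnip3, which promotes removal of mitochondria (chr7:138890836-138909519), was at 7.38, 8.29 and 9.47 against 14.8 and 25.3 (log2 1.12 ± 0.19, adjusted p = 0.023). Ndrg1 and Egln3 lay above too, without a call (10.6 and 11.4 against 1.70 to 6.72, adjusted p = 0.2, and 7.62 and 18.0 against 4.08 to 5.82, adjusted p = 0.079). The Ankrd37 call was lost without culture 2 of day 18 or either clone (adjusted p 0.056 to 0.095), and that of Bnip3 without culture 2 of day 18, culture 2 of day 25 or clone 3 (0.052 to 0.11). Of 20 glycolysis genes, which HIF also controls in part, 5 were above and 0 below, and 3 had an adjusted p below 0.05 with a mean that differed less than 2-fold. Hk1 was at 7.28 to 8.70 against 13.9 and 13.02 (adjusted p = 0.036), Aldoa at 399 to 525.9 against 686.6 and 764.5 (0.027) and Eno1 at 641.5 to 761.1 against 1277 and 1132 (0.012).

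The windows of 250 bases before the Bnip3 and Ankrd37 starts (RefSeq, GRCm38.p6) hold the core of the hypoxia response element, ACGTG, in capitals. In Bnip3 (chr7:138909507-138909756, minus strand) the matches on each strand overlap as CACGTG, beginning 108 and 107 bases upstream. In Ankrd37 (chr8:45999851-46000100, minus strand) they begin 241 and 6 bases upstream.
Bnip3: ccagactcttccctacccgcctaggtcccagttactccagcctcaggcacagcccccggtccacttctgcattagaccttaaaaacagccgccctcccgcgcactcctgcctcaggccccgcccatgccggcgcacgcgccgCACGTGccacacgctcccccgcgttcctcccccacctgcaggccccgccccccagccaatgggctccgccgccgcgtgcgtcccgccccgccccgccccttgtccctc
Ankrd37: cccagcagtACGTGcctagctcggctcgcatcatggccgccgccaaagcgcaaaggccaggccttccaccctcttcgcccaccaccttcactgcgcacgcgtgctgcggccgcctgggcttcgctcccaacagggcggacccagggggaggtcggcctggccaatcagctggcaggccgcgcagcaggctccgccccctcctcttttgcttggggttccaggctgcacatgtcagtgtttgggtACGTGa
ACGTG or its reverse occurs in 16.6% of 32851 promoter windows, and in 8 of 10 hypoxia targets that were matched to one. The motif was chosen because it is known for this list, and a match is a description of letters in the window.

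The remaining genes of the 12 named in each direction were of mixed roles. Cyct, the testis form of cytochrome c (chr2:76353942-76360450), was at 0.371, 0.647 and 1.05 in the cultures and at 4.49 and 19.2 in the clones (log2 2.66 ± 0.41, adjusted p = 0.013, but 0.16 with 1 mean per day). Wdfy1, an endosomal protein (chr1:79702262-79776143), was at 1.21, 1.40 and 1.76 against 10.2 and 12.2 (log2 2.30 ± 0.18, adjusted p = 0.00014). Adam23, an adhesion protein (chr1:63445891-63596276), was at 4.99, 6.49 and 7.56 against 31.6 and 23.4 (log2 1.95 ± 0.18, adjusted p = 0.0006). In all 3 genes both clones were well above every culture. Pltp, which transfers phospholipids, was at 4.10 to 14.9 against 43.4 and 40.6 (log2 2.08), and Anxa4, a calcium-dependent membrane protein, at 2.71 to 13.04 against 37.9 and 34.5 (log2 2.34), but with adjusted p of 0.038 and 0.045 that rose to 0.063 to 0.14 and 0.059 to 0.15 when single libraries were left out (culture 2 of day 18, either culture of day 25 or either clone for Pltp, and either culture of day 25 or 38 or either clone for Anxa4). Got1l1, a relative of an aspartate aminotransferase, was at 3.22 to 7.27 against 16.4 and 25.5 (log2 1.74, adjusted p = 0.015, but 0.1 without clone 3 and 0.11 with 1 mean per day). B3galnt1, a glycosyltransferase gene, was at 0.885 to 1.58 against 7.70 and 4.58 (log2 1.70 ± 0.22, adjusted p = 0.0049, but 0.11 with 1 mean per day). Among epithelial genes, 16 of which were tested, only the tight junction gene Cldn3 was called, at 3.48 to 7.65 against 18.9 and 11.4 (log2 1.41 ± 0.29, adjusted p = 0.041, and 0.059 to 0.18 without either culture of day 25 or 38 or either clone).

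Among the lower genes, Nkx1-2, a homeobox gene of the posterior epiblast and neural plate (chr7:132594878-132599637), was at 10.3, 12.8 and 55.9 in the cultures and at 2.27 and 0 in the clones (log2 −3.50 ± 0.74, adjusted p = 0.047), and lost its call without any 1 of the 8 libraries (adjusted p 0.052 to 0.25). Nefl, a neurofilament (chr14:68083863-68089095), was at 30.7, 45.5 and 52.3 against 15.7 and 5.81 (log2 −1.98 ± 0.32, adjusted p = 0.017, but 0.074 without clone 3 and 0.16 with 1 mean per day). Kcnj3, a potassium channel (chr2:55435970-55598145), was at 8.77, 10.7 and 13.6 against 3.53 and 1.36 (log2 −1.84 ± 0.24, adjusted p = 0.0054, but 0.11 with 1 mean per day). Efcab7, a protein of the ciliary membrane, was at 6.73 to 9.22 against 1.78 and 1.37 (log2 −1.76 ± 0.17, adjusted p = 0.00066). Gt(ROSA)26Sor, the transcript of the locus into which M2rtTA was placed, chosen after its values were seen, was at 1.63 to 2.63 against 0.402 and 0.371 (log2 −1.14 ± 0.19, adjusted p = 0.019, and 0.053 to 0.072 without culture 1 of day 38 or clone 3). MEFs had 7.14 and 6.96.

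**Figure D4:**
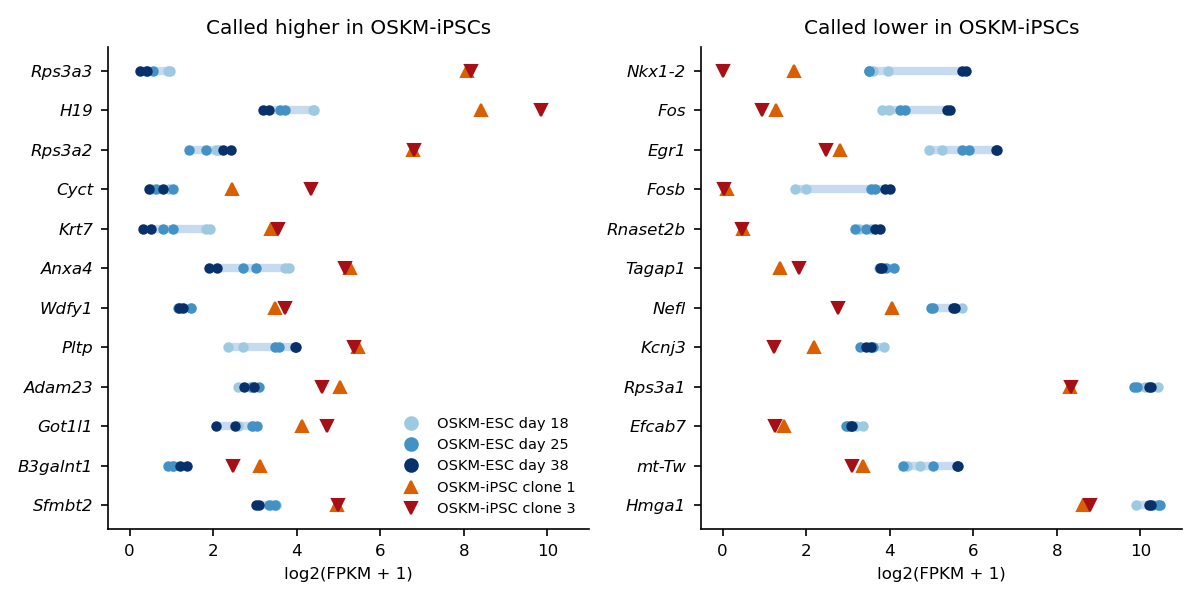
Expression, as log2(FPKM + 1) (horizontal axis), of the 12 genes named in each direction in each of the 8 libraries, with circles for the 6 OSKM-ESC cultures by day and triangles for the clones. In each called gene both clones lie outside the span of the cultures, as in Rps3a3 and Rnaset2b.

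Of 20 mitochondrial transfer RNAs tested, a group chosen after its values were seen, 4 were called lower and 0 higher. Over all genes tested, 0.424% were called lower and 0.946% higher. The 4 (mt-Tw, mt-Tn, mt-Tc and mt-Ty) lie close together, within MT:4950-5326, so they may not be separate results. Both clones lay below the cultures for 9 of the 20, against 7.96% of all genes tested. They did so for 0 of the 10 mitochondrial protein genes tested. The tRNA of tryptophan, mt-Tw, was at 18.9, 28.7 and 48.9 in the cultures and at 9.21 and 7.59 in the clones (log2 −1.73 ± 0.36, adjusted p = 0.045), and its call was lost without 7 of the 8 libraries in turn, the exception being culture 1 of day 25 (adjusted p 0.052 to 0.19). The median log2 difference of all mitochondrial genes from the mean of the cultures was −0.65 in clone 1 and −0.98 in clone 3. Among single cultures it was −0.91 to 0.45, so clone 1 lay within their range and clone 3 just below it.

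The other lists held few calls. DNA methylation genes had 16 tested and 1 call (Dppa3). LIF and STAT3 genes (12 tested), BMP genes (11), Nodal genes (12), WNT targets (9), G1 cyclins and CDK inhibitors (14), MHC class I genes (13), interferon genes (7), cholesterol genes (18), serine and amino acid stress genes (14), heat shock genes (8), mesenchymal genes (9), oocyte genes (4) and mitochondrial protein genes (10) had 0 calls in limma. At an unadjusted p below 0.05 these lists held, in the same order, 3, 0, 4, 2, 6, 1, 2, 2, 5, 2, 0, 1 and 1 genes, and the 21 fibroblast markers tested held 0. Hsph1, a heat shock chaperone, was at 68.1 to 87.8 in the cultures and 43.9 and 52.4 in the clones (adjusted p = 0.038), but its mean differed less than 2-fold. Both clones were below in 5 and above in 1 of the stress genes and below in 3 and above in 1 of the heat shock genes. They were above in 4 and below in 0 of the G1 genes and of the cholesterol genes, above in 3 and below in 0 of the LIF genes, and above in 3 and below in 2 of the Nodal genes. In each of the remaining lists of this paragraph with 0 calls, at most 1 gene lay above and 1 below. Over all genes tested, both clones were above in 9.89% and below in 7.96%. The median log2 difference was −0.88 for WNT targets, −0.35 for stress genes and 0.18 for LIF genes. Of 13 genes that mark the cleavage-stage embryo, 0 passed the filter. Cdkn2a, a cell cycle inhibitor chosen after its values were seen, was at 1.31 to 7.69 in the cultures and 18.5 and 25.7 in the clones (adjusted p = 0.087).

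The same question can be put in 2iL, where 2iL-iPSC clones 3 and 6 were compared with 6 cultures of 2iL-ESCs on days 18, 25 and 38. It shares no library with the OSKM comparison, but the strain labels differ between its groups in the same way, so origin and strain cannot be told apart there either. Routine culture of the 2iL-iPSCs is given as N2B27 + DOX in the labels and as 2iL in the study's methods. Of 12681 genes tested, 146 were called higher (1.15%) and 96 lower (0.757%), with both clones above in 1260 (9.94%) and below in 1454 (11.5%). The 242 calls together were 132 and 136 without either culture of day 38, and 121 and 111 without clone 3 and clone 6. Of the 125 genes higher in OSKM-iPSCs, 106 were tested in 2iL, and 42 of them (39.6%) were above the 2iL-ESC range in both 2iL-iPSC clones and 4 below. They were called higher in 27 (25.5% of the 106, and 18.5% of the genes called higher in 2iL). Of the 56 lower genes, 51 were tested, 25 (49%) were below and 3 above, and 16 were called lower (31.4% of the 51, and 16.7% of the genes called lower in 2iL).

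Of the processed copies, Rps3a3, Rps3a2, Rpl34-ps1 and Pcna-ps2 were called in the same direction in both media, and Tma7-ps and Rps13-ps1 were not called in 2iL. Rps3a3 was at 291.5 and 287.8 in the 2iL-iPSC clones and at 0.0599 to 0.514 in the 2iL-ESC cultures. H19 was at 44.5 and 16.1 against 1.14 to 3.46, above the range in both media. Tma7-ps differed between the 2iL-iPSC clones, at 69.3 in clone 3 and 0.531 in clone 6. Rps13-ps1 was at 45.3 and 36.8 in them, while it was near 0 in the OSKM-iPSCs. Wdfy1, Adam23, B3galnt1, Rnaset2b, Tagap1, Hmga1, Nkx1-2 and Rps3a1 were also called in the same direction in 2iL. Of 14082 genes in a fit of both media, 118 (0.838%) had an interaction of origin and medium group with adjusted p below 0.05, and 31 of the higher and 11 of the lower OSKM genes were among them. Without OSKM-iPSC clone 1 or clone 3 these genes were 218 and 296. The medium groups of the iPSCs also differ in clones and passage (2 and 3 in 2iL against 7 and 6), so the interaction cannot be told apart from these. The OSKM genes were called on the OSKM difference, which is part of the interaction, so their share cannot be read against that of all genes. Sfmbt2 differed between origins by 2.09 more in the OSKM medium on the log2 scale (adjusted p = 0.00011), as 2iL-iPSCs had 5.85 and 4.08 and 2iL-ESCs 6.11 to 7.40. Dppa3 differed by 1.72 more (adjusted p = 0.016), with 43.1 and 34.6 in 2iL-iPSCs and 35.5 to 46.0 in 2iL-ESCs. For the immediate early genes, 2iL-ESC levels were low, with Fos at 0.556 to 6.40 and Egr1 at 0 to 6.51 in 2iL, a medium with a MEK inhibitor, and 2iL-iPSCs had 0.972 and 0.618, and 0.0878 and 0.

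**Figure D5:**
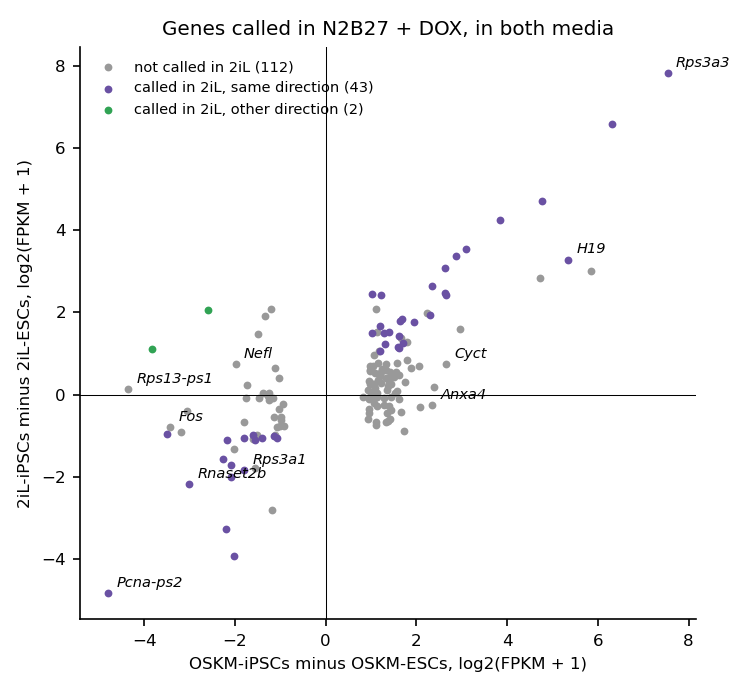
Difference between iPSCs and ESCs in 2iL (vertical axis) against that in the OSKM medium (horizontal axis), both log2(FPKM + 1), for the called genes tested in both media, with 1 point per gene and colours for the call in 2iL. Rps3a3 lies high on both axes, whereas Rps13-ps1 lies near 0 in 2iL and at −4.36 in the OSKM medium.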

How the data were processed

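RNA-Seq was measured in 18 libraries, of which 8 entered the main comparison. STAR alignment to GRCm38 was followed by StringTie, and the authors used only uniquely mapped reads (STAR 2.7.1a, StringTie 2.0 and Cuffdiff 2.2.1 in the submitters' processing notes). The deposited FPKM values were used, and the deposited coverage, a signal without normalization, gave depth only. Depth in reads is unknown, and coverage per unit of FPKM was 5.21 to 6.07 in the 8 libraries.

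Of 55471 genes listed, 55469 were kept, as 2 had failed values, and 11 identifiers listed more than once were summed. Genes that passed an FPKM of 1 in any compared library were tested with limma 3.58.1 (lmFit, eBayes with trend, no day term) in R 4.3.3 on log2(FPKM + 1), with Benjamini-Hochberg adjustment over all 13736 genes, of which 517 X- and Y-linked genes were removed after the fit. Tables and figures were made with Python 3.11.15. A call needed both clones outside the range of the 6 cultures, an adjusted p below 0.05 and a mean FPKM differing more than 2-fold. Named were the 12 called genes with the largest log2 difference in each direction with a mean FPKM of at least 5 in the higher group, leaving out predicted genes and names of pseudogenes, microRNAs and snoRNAs, then called members of 31 gene lists, the transgene, naive and Dlk1-Dio3 genes and the defining fibroblast markers. Other genes, uncalled list members included, were chosen after their values were seen. The members and lists were chosen with earlier results of these data known. Positions and gene types came from GENCODE M21. The script was tested on simulated data. Alternatives were other pseudocounts, filters, scalings, fits, calls and sets of days, and leaving out each library.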

Additional observations from a re-analysis of the deposited data

Results flagged for a closer look

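Among 56 named genes, a single ESC culture lay far from the other 5 in 3. A chance rate of about 1 in 20 holds for 6 independent values. Cultures of the same day were alike, so 3 of 56 cannot be read against that rate. The gap divided by the range of the 6 cultures was 0.701 for Sox2, 0.723 for Klf2 and 0.696 for Pcna-ps2. Sox2 was low in culture 1 of day 18 (66.8), Klf2 high in culture 2 of day 18 (19.6) and Pcna-ps2 low in culture 1 of day 25 (34.2).

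The difference between iPSCs and ESCs was unequal in the OSKM and 2iL groups for 11 of the 56 genes, by the interaction term of limma with adjustment over all genes, against 0.838% of all genes tested. Most of the 56 were named for their OSKM difference, so the share cannot be read against that of all genes, and medium, clone and passage cannot be told apart in the iPSCs. On the log2 scale the OSKM difference exceeded that in 2iL by 2.595 for Anxa4 (adjusted p = 0.043), 2.614 for Got1l1 (0.022), 2.091 for Sfmbt2 (0.00011), 1.724 for Dppa3 (0.016) and 1.262 for Hand1 (0.019). It was lower by −2.727 for Nefl (adjusted p = 0.03), −1.882 for Kcnj3 (0.0085), −1.687 for Efcab7 (0.0012), −1.446 for Spry2 (0.0016) and −1.662 for Myc (0.038). For Rps13-ps1 it was −4.501 (adjusted p = 8.1e-08).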

How the results depend on the processing

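No paired analysis was possible because the clones carry numbers of their own and the cultures of the 3 days are not numbered to match them. For the interaction, a replicate block gave 96 genes against 118. Calls in OSKM-iPSCs were 125 higher and 56 lower. Without 1 library in turn, 71 to 251 were higher and 30 to 86 lower, and the clones left in were above in 1396 to 3056 genes and below in 1091 to 2623. With both clones in, these counts reached 1586 and 1496. The interaction gave 82 to 296 genes and the 2iL comparison 111 to 319, against 242. Without a filter on low values, 227 were higher and 34 lower and 1943 above, and the interaction gave 253. With an FPKM over 5, 57 were higher, 860 above, 57 had an interaction and 135 differed in 2iL. A fit of all 9 groups gave 440 higher, 205 lower and 557 in 2iL. A mean per day gave 22 and 15, with 1768 below. Day 38 alone gave 184 lower, 3524 above and 4445 below. With OSKM-ESCs of day 38 alone but 2iL-ESCs of all 3 days, the interaction gave 574 genes. Unadjusted p-values gave 452 and 176. Protein-coding genes alone, chosen after the data were seen, gave 75 and 29. A pseudocount of 0.1 gave 69 interactions and TPM 78. Quantile normalization moved the split to 102 higher and 72 lower. Of 36 called named genes, 17 kept an adjusted p below 0.05 in all settings. Uncalled values changed sign for Nanog at day 38 alone (−0.25), Esrrb (−0.68 to 0.52 without 1 library in turn, 0.04 without culture 2 of day 38), Klf2 (−0.24 without clone 3 to 1.0 without clone 1), Tbx3 (−0.16 to 0.12, 0.01 without culture 2 of day 18) and Zfp42 (−0.22 without clone 3 to 1.985 without clone 1). The cause of each shift was not tested, save where fewer genes or libraries were used. FPKM hides the number of reads, and 2 clones give the spread of iPSCs only roughly.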
